A study of Mus musculus with 33 samples.

Results

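WNT pathway genes were followed through the hair growth cycle in whole dorsal skin of the mouse. The genes were those named Wnt, Fzd, Sfrp, Dkk or Rspo with a number, together with Wif1, Lef1, Axin2, Ctnnb1, Lrp5 and Lrp6, and the rule used no difference between groups. Each gene was read by 1 probe set of the Affymetrix Mouse Genome 430 2.0 array, the one with that symbol alone and the highest mean log2 signal over the 33 arrays. The rule found 47 genes with 90 probe sets among 18193 genes with a probe set of a single symbol. Tcf7, which the rule also names, had no such probe set and was not analysed here. Of the 47 genes 38 passed the filter on low signals (above the array median on at least 3 arrays), as 12859 of the 18193 genes did. These were 13 ligands, 12 receptors and coreceptors, 3 R-spondins, 7 secreted inhibitors and 3 intracellular effectors.

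All mice were wild-type C57BL/6, and each array held the RNA of the upper-mid back skin of 1 mouse. The number of mice limits the precision. The natural cycle was the second after birth, sampled at P23 and P25 (P, postnatal day; early anagen, 4 mice), P27 (mid anagen, 3), P29 (late anagen, 3), P34 (late anagen, 1), P37 and P39 (early catagen, 6), P41 (mid catagen, 3) and P44 (telogen, 3), with males and females at every time point of more than 1 mouse except P23, where both were male. The depilation cycle was started by stripping the hair of adult mice (at least P50) in telogen with a mixture of wax and rosin, which also injures the skin. Here 2 females were taken per day after depilation (D), with D3 in early anagen, D5 in mid anagen, both D8 and D12 in late anagen, and D17 in early catagen. Age and injury therefore differed together between the cycles and cannot be told apart. Sex differed in part as well, since every depilated mouse was female. Sex was examined by fits of females alone and with sex in the model. Natural early anagen held 1 female, P25 replicate 1, so the female fits of that phase rest on 1 mouse. Whether D3 matched P23 and P25 in follicle stage, beyond the study's staging, was not tested. Phases follow the study's design and its morphological staging, because the sample descriptions of P41, P44 and all depilation arrays name early anagen throughout. The P34 array entered no late anagen mean, so late anagen below is P29.

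WNT proteins are secreted lipid-modified ligands that bind Frizzled receptors together with the coreceptors LRP5 and LRP6. Binding stabilizes beta-catenin (Ctnnb1), which enters the nucleus and activates target genes such as Axin2 through LEF1 and other TCF factors, while R-spondins keep more receptors on the cell surface and SFRP, WIF1 and DKK proteins restrain the signal. In skin the pathway is known for inducing hair follicles, for starting anagen and for directing matrix cells into the hair shaft.

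Signals below are MAS5 intensities on a linear scale, in arbitrary units. A log2 difference is between group means of log2 signal after signals under 34.6 were raised to that floor, ± is its standard error (SE) after a difference and the SD after a mean signal, and a call is a limma adjusted p under 0.05 over all 26988 kept probe sets. On the arrays the median signal was 111.2 to 142.5, and pairs of arrays of 1 time point correlated at 0.943 to 0.98 (Pearson's r across probe sets, which are not independent). The tissue markers moved with the phases. The summed signal of 4 hair matrix, shaft and inner root sheath genes (Hoxc13, Msx2, Krt35, Krt71) was 767 to 1493 in telogen, 8220 to 22750 in early anagen and 59180 to 61440 in late anagen. That of 3 dermal papilla genes (Corin, Alx4, Vcan) was 514 to 848 in telogen and 2667 to 5386 in early anagen, and in telogen 2 of the 3 lay under the floor on at least 1 array. Cornified epidermis genes (Flg, Lor, Krt1, Krt10) summed to 89930 to 112000 in telogen and 28700 to 31360 in late anagen, and to 7767 on 1 early catagen array, P39 replicate 2. Among early anagen mice P25 replicate 1 had the highest Sfrp2 and Sfrp4 and the lowest Wif1, Fzd5 and Fzd10. Its Lef1, at 602.8, was above that of P23 replicate 1, at 559.7. Dixon's criterion, used below, flagged no natural early anagen mouse. The part of these shifts in the results was not tested, and in whole skin fewer cells of a type and less RNA per cell cannot be told apart.

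Over the natural cycle most WNT genes changed, and the 5 classes did not move as blocks. The effector Lef1, the inhibitor Wif1, the ligands Wnt5a, Wnt10b and Wnt11, the receptors Fzd5 and Fzd10 and the R-spondin Rspo2 were high in anagen. They had fallen by mid catagen or telogen. The inhibitors Sfrp2, Sfrp4, Sfrp5 and Dkk2, the ligand Wnt2 and the receptor Fzd4 ran the other way. By the limma F test over 6 phases (22 arrays) 32 of 38 genes were called, 84.2%, where 77.1% of all genes tested were called, so the share lay near the background. They were 9 of 13 ligands, 10 of 12 receptors and all 3 R-spondins, 7 inhibitors and 3 effectors that were tested. The median range between the highest and the lowest phase mean was 1.18 on the log2 scale, and 0.83 over all genes. It was 0.71 for effectors, 0.96 for receptors, 1.06 for ligands, 1.69 for inhibitors and 2.15 for R-spondins. Calls for Axin2 (without P23 replicate 2, adjusted p = 0.0578), Fzd2 (without P23 replicate 2, 0.0549), Lrp6 (without P41 replicate 2 or 3, up to 0.113) and Wnt6 (without P41 replicate 2, 0.0614) were lost when 1 array was left out.

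**Figure D1:**
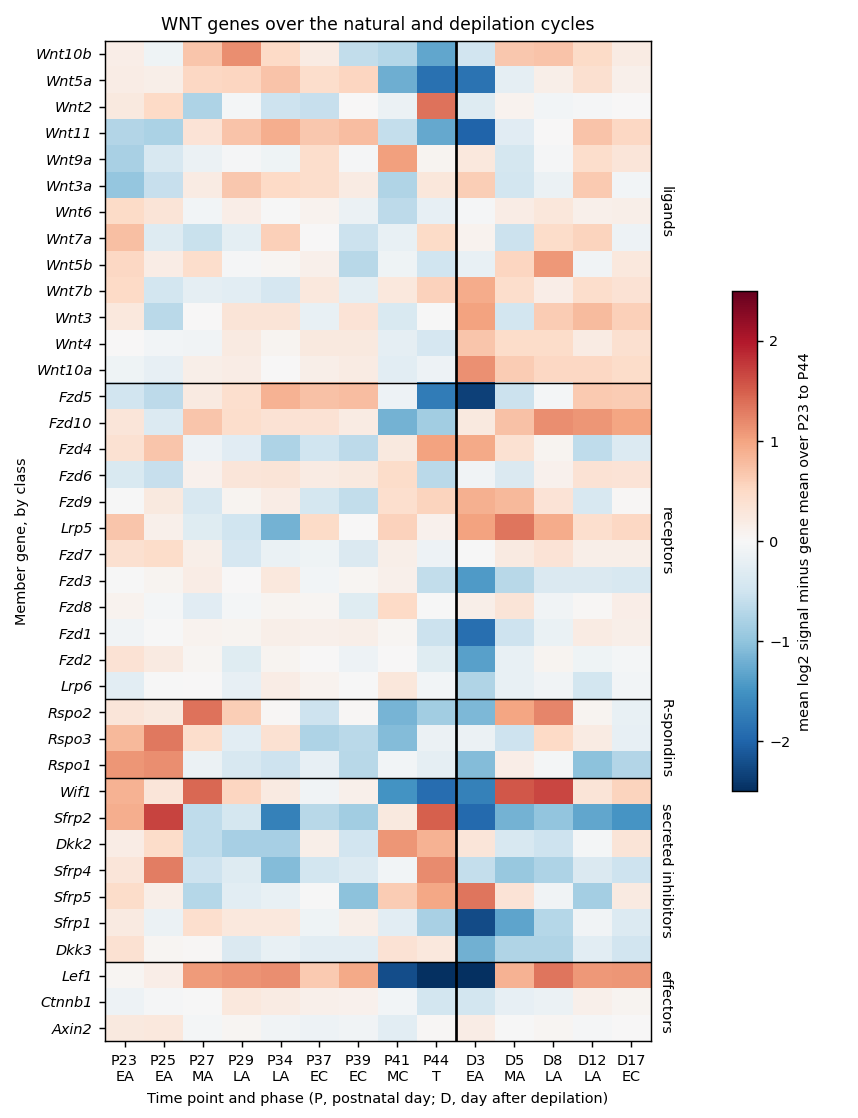
Mean log2 signal of the 38 tested genes at each time point (columns; EA, MA and LA, early, mid and late anagen; EC and MC, early and mid catagen; T, telogen), minus the mean of that gene over the 9 natural time points, with the colour scale ending at 2.5 in each direction. Rows are ordered within each class by their range over the natural phases. Lef1, Wif1 and Wnt5a are blue at P41, P44 and D3, where Sfrp2 and Sfrp4 are red at P44 and blue at D3.

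Among the ligands, Wnt5a, Wnt10b and Wnt11 were anagen genes and Wnt2 a telogen gene. Wnt5a, best known for signaling through the polarity branch, had natural signals of 1384, 1420.2, 1123 and 1646 in early anagen, 1753, 1839 and 1694 in mid anagen, 1763, 1885 and 1715 in late anagen and 2002 at P34. In early catagen the 6 mice spanned 1515 to 1972 with a median of 1732. The signals then were 703, 421 and 482 in mid catagen and 323, 298 and 397 in telogen, so no mouse of the last 2 phases reached the lowest mouse of the 4 earlier ones. The change from early to mid catagen was -1.71 ± 0.16 on the log2 scale, or 3.28-fold (limma adjusted p = 1.95e-04), and early anagen lay 2.04 ± 0.17 above telogen (adjusted p = 5.64e-04). The other 3 probe sets of Wnt5a gave correlations with it of 0.506 to 0.944 across the 33 arrays.

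Wnt11, also a ligand tied to the polarity branch, climbed through anagen in steps. Its signals were 244, 242 and 205 in telogen, 258, 427, 256 and 402 in early anagen, 737, 816 and 583 in mid anagen, 888, 894 and 928 in late anagen and 1037 at P34. Early catagen mice held 752 to 1159 with a median of 904, and mid catagen mice 426, 317 and 363. Every mid anagen mouse exceeded every early anagen mouse, while early anagen overlapped mid catagen. Wnt11 rose by 1.11 ± 0.24 from early to mid anagen (limma adjusted p = 0.0194, lost without P27 replicate 1 or 2, adjusted p up to 0.0804) and fell by 1.32 ± 0.17 from early to mid catagen (adjusted p = 7.29e-04). Telogen lay 3.93-fold below late anagen (-1.98 ± 0.13, adjusted p = 1.58e-04).

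Wnt10b, a canonical ligand linked to the start of hair growth, was at 17.7, 16.5 and 14.8 in telogen, under the floor in all 3 mice. It was at 78.3, 118, 55.6 and 114 in early anagen, 135, 165 and 121 in mid anagen, 225, 202 and 156 in late anagen and 120.4 at P34, then at 25.5 to 157 with a median of 71.2 in early catagen and 73.5, 43.4 and 45.1 in mid catagen. Outside telogen a single natural mouse, P39 replicate 1, was also under the floor. Against the floor, Wnt10b was at least 2.53-fold higher in early anagen (limma adjusted p = 0.0113) and at least 5.55-fold higher in late anagen (adjusted p = 1.75e-04) than in telogen.

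Wnt2, a canonical ligand, had its highest signals at rest, 214, 282 and 306 in telogen. It was at 77.2, 106 and 101 in mid catagen, 102, 146, 215 and 98.6 in early anagen, 76.4, 51.8 and 55.7 in mid anagen, 101, 122 and 80.9 in late anagen and 71.9 at P34, and the early catagen mice spanned 8.8 to 117 with a median of 98.2. The telogen mice and the P25 replicate 1 mouse stood above the others. Telogen exceeded late anagen by 1.40 ± 0.21 (limma adjusted p = 0.0024) and mid catagen by 1.49 ± 0.20 (adjusted p = 0.0116), whereas its lower level in early anagen (-0.99 ± 0.29, adjusted p = 0.0444) lost the call without any 1 of 6 of the 7 arrays (adjusted p up to 0.134).

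The remaining ligands moved less. Wnt3a, a canonical ligand, was lower in early anagen than in telogen (-1.06 ± 0.27), rose by 0.98 ± 0.24 into mid anagen and fell by 1.07 ± 0.32 into mid catagen. All 3 of these calls were lost on leaving out some of the arrays, the first without P23 replicate 2, P44 replicate 1 or P44 replicate 3. Wnt4, expressed in epidermis, fell by 0.47 ± 0.11 from early to mid catagen and differed by -0.64 ± 0.16 between telogen and late anagen, while Wnt7b was 0.84 ± 0.15 higher in telogen (limma adjusted p = 0.00525) although its F test was not passed (adjusted p = 0.123). Wnt10a, another canonical ligand, ranged over only 0.46 between phases, with 487, 615, 467 and 559 in early anagen, 649, 718 and 581 in mid anagen, 742, 633 and 640.1 in late anagen, 589 at P34, 584 to 823 with a median of 619.9 in early catagen, 544, 437 and 484 in mid catagen and 558, 538 and 524 in telogen. Mid catagen mice lay below every early catagen mouse (-0.44 ± 0.14, adjusted p = 0.0326, lost without P37 replicate 1, P41 replicate 2 or P41 replicate 3). Wnt3, Wnt5b, Wnt7a and Wnt7b did not pass the F test.

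**Figure D2:**
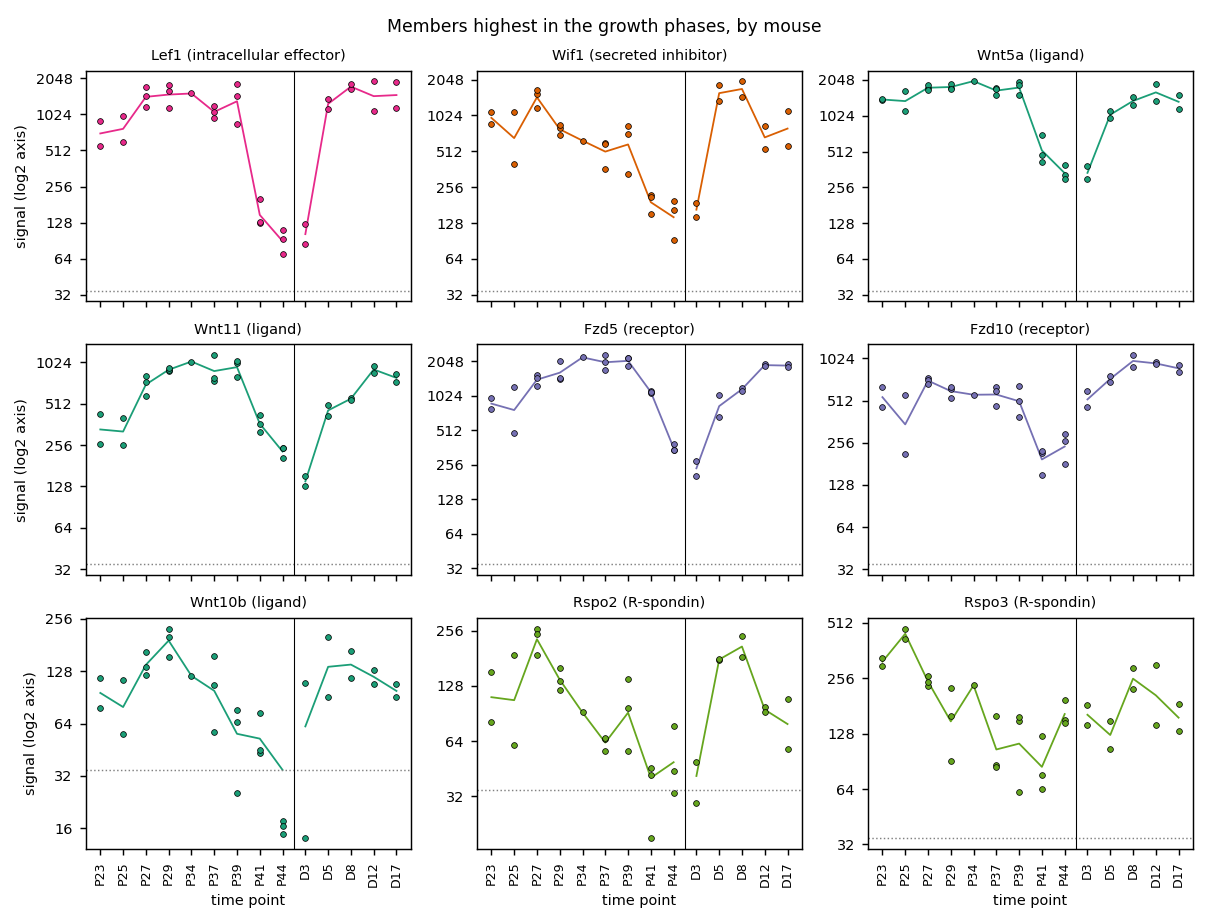
Signals of 9 genes that were high in anagen, on log2 axes, with 1 point per mouse and lines through the mean log2 signal of each time point after the floor; a vertical line separates the natural from the depilation cycle, and a dotted line marks the floor of 34.6. Lef1 is between 69.8 and 111.5 in telogen and between 85.0 and 123.9 at D3, and at 1144 or above on every array from D5 to D8.

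Frizzled receptors divided in the same way. Fzd5 and Fzd10 were the steepest among those that fell toward telogen, Fzd4 rose, and Fzd1, Fzd2 and Fzd3 moved by less. Fzd5 read 783, 974, 486 and 1211 in early anagen, 1562, 1450.5 and 1242 in mid anagen, 1421, 2047 and 1471 in late anagen and 2209 at P34. In early catagen the mice spanned 1728 to 2323 with a median of 2087, followed by 1126, 1079.6 and 1099 in mid catagen and 347, 342 and 389 in telogen. Telogen lay below every other natural mouse, and mid catagen below every early catagen mouse. Fzd5 fell by 0.88 ± 0.11 into mid catagen (limma adjusted p = 7.25e-04) and 3.07-fold further into telogen (-1.62 ± 0.11, adjusted p = 0.00159). Its higher level in early anagen than in telogen (1.19 ± 0.29, adjusted p = 0.0239) was lost without 5 of the 7 arrays, each in turn (adjusted p up to 0.0739).

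Fzd10 fell earlier. It was at 458, 639, 214 and 560.5 in early anagen, 742, 719 and 670.3 in mid anagen, 624, 645 and 532 in late anagen, 563 at P34 and 388 to 652 with a median of 556 in early catagen, then at 218, 225 and 150 in mid catagen and 180.4, 262 and 294 in telogen. The P25 replicate 1 mouse, at 213.5, was the sole one of the growing and early catagen mice within the range of the last 2 phases. The fall into mid catagen was 2.75-fold (-1.46 ± 0.20, limma adjusted p = 9.47e-04). Fzd4, a receptor that also binds the ligand norrin, rose by 0.81 ± 0.17 into mid catagen (adjusted p = 0.00661) and was 2.46-fold higher in telogen than in late anagen (adjusted p = 0.00232). The call into mid catagen was lost with its second probe set. The probe sets of Fzd4 not chosen correlated with the chosen one at 0.513 and 0.249.

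Fzd1 was at 4086, 4995, 4138 and 5427 in early anagen, 4697, 5346 and 5244 in mid anagen, 4834, 4631 and 5716 in late anagen, 5329 at P34, 4520.5 to 5979 with a median of 5303 in early catagen, 4652, 4793 and 5508 in mid catagen and 3554, 2940.3 and 3397 in telogen. Fzd2 read 1160.2, 1594, 1176 and 1279, then 1001, 971 and 1329, then 917, 955 and 722, then 1106, then 881 to 1209.8 with a median of 991, then 1038, 1223 and 934 and then 727, 941 and 901 in the same order of phases. For Fzd3 the values were 701, 832, 729.6 and 885, 764, 924 and 951, 678, 822 and 851, 926, 679 to 844 with a median of 767, 703, 963 and 876 and 541, 498 and 473. Telogen was the lowest phase for all 3 receptors by its mean, and for Fzd1 and Fzd3 no telogen mouse reached any other natural mouse. Telogen was lower than late anagen for Fzd1 (-0.62 ± 0.15, limma adjusted p = 0.0144) and Fzd3 (-0.63 ± 0.14, adjusted p = 0.0119), and was not called for Fzd2 (-0.012 ± 0.17, adjusted p = 0.961). Fzd6 was lowest in telogen as well (-0.96 ± 0.19 against late anagen, adjusted p = 0.00724). Of the coreceptors, Lrp6 passed the F test with a range of 0.49 and Lrp5 did not (adjusted p = 0.357). Probe sets disagreed for Lrp6 and Fzd7, whose second probe set correlated with the first at -0.381 and -0.145 across the 33 arrays, so these genes are uncertain.

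R-spondins peaked in early or mid anagen and fell by catagen. Rspo1 was at 519, 547, 576 and 534 in early anagen and at 234, 232 and 209.9 in mid anagen, and the 4 early anagen mice exceeded every other mouse of the natural cycle. It rose by 1.35 ± 0.27 from telogen (226.6 ± 86.3) to early anagen (limma adjusted p = 0.0117) and fell by 1.27 ± 0.11, that is 2.41-fold, into mid anagen (adjusted p = 0.00184). The latter was the sole one of the 8 member calls of that step that held without each of the 7 arrays in turn.

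Rspo3 was at 331, 299, 475 and 418 in early anagen, 230.5, 243 and 264 in mid anagen, 227, 160.4 and 90.8 in late anagen, 234 at P34, 61.4 to 159.8 with a median of 118 in early catagen, 76.1, 124 and 64.0 in mid catagen and 152, 146 and 196 in telogen. Early anagen stood above all later mice, and telogen overlapped late anagen and early catagen. The rise from telogen to early anagen was 1.20 ± 0.20 (limma adjusted p = 0.00587). Rspo2 had signals of 81.3, 152, 60.7 and 189 in early anagen, 263, 189 and 245 in mid anagen, 161, 136 and 122 in late anagen, 91.7 at P34, 56.4 to 140.2 with a median of 66.2 in early catagen, 18.9, 45.5 and 41.7 in mid catagen and 77.7, 44.0 and 33.2 in telogen. Mid anagen was its highest phase, and 1 mouse each of mid catagen and telogen lay under the floor. Rspo2 was lower in telogen than in late anagen by at least 2.82-fold (adjusted p = 0.00789), and its fall from early to mid catagen (-0.91 ± 0.28, adjusted p = 0.0331) was lost without P39 replicate 3 or any P41 array.

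Secreted inhibitors formed 2 opposed sets. All 7 that were tested differed between telogen and late anagen, where 49.2% of all genes did: Sfrp2, Sfrp4, Sfrp5, Dkk2 and Dkk3 were higher in telogen, and Wif1 and Sfrp1 were higher in late anagen. Wif1, which binds WNT ligands directly, read 874, 1094, 397 and 1102 in early anagen, 1188, 1549 and 1674 in mid anagen, 799, 858 and 704 in late anagen and 629.7 at P34. It spanned 333 to 841 with a median of 600 in early catagen and was at 218, 152 and 211 in mid catagen and 91.6, 164 and 196 in telogen. Mid anagen mice were the highest, and telogen and mid catagen mice lay below all others. Wif1 was 5.61-fold higher in early anagen than in telogen (2.49 ± 0.42, limma adjusted p = 0.00637) and fell by 1.51 ± 0.30 into mid catagen (adjusted p = 0.00497). Sfrp1, a soluble Frizzled-related protein, was 0.86 ± 0.17 higher in early anagen than in telogen (limma adjusted p = 0.0108). Of its 5 probe sets, those not chosen correlated with the chosen one at 0.0912, 0.205, 0.642 and 0.746.

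Sfrp2, a Frizzled-related protein made by mesenchyme, was high in telogen and early anagen and low in between. Its telogen mice were at 1744, 2274 and 2307 and its early anagen mice at 1576, 1234, 3427 and 1709.9, against 829.4, 296 and 451 in mid anagen, 839, 449 and 436 in late anagen and 233 at P34. In early catagen it spanned 262 to 949.6 with a median of 396, and mid catagen mice were at 738, 982 and 955. No mouse from mid anagen to mid catagen reached the lowest telogen or early anagen mouse, and the highest value was that of P25 replicate 1, the single female of early anagen. Sfrp2 fell by 1.94 ± 0.43 from early to mid anagen (limma adjusted p = 0.0228, lost without P23 replicate 1, 0.0838 at most, or P27 replicate 2) and was 3.82-fold higher in telogen than in late anagen (adjusted p = 0.00213).

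Sfrp4, of the same family, was at 2227, 2082 and 2422 in telogen, 1097, 1368, 3340.1 and 1748 in early anagen, 1058, 441 and 718 in mid anagen, 691, 931 and 777 in late anagen, 468 at P34, 489 to 893 with a median of 818 in early catagen and 920.1, 983 and 949 in mid catagen. The telogen mice exceeded all others but P25 replicate 1. The step from mid catagen to telogen was 1.24 ± 0.11 (limma adjusted p = 0.00392). Sfrp5, which is expressed in follicle epithelium, had risen by mid catagen, with 181, 213, 193 and 128 in early anagen, 73.5, 66.5 and 132 in mid anagen, 134, 125 and 98.4 in late anagen, 125 at P34, 48.9 to 158 with a median of 106 in early catagen, 228, 214 and 222 in mid catagen and 379.7, 294 and 193 in telogen. All mid catagen and telogen mice exceeded every mouse from mid anagen to early catagen. Telogen lay 1.24 ± 0.27 above late anagen (adjusted p = 0.0102).

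Dkk2, a DKK protein that binds LRP coreceptors, was at 128, 95.7 and 129.5 in late anagen, 118 at P34, 69.2 to 315 with a median of 209 in early catagen, 312, 440.5 and 656 in mid catagen, 345, 461 and 348 in telogen, 178, 318, 299 and 272 in early anagen and 92.9, 124 and 211 in mid anagen. Late anagen lay apart from mid catagen and telogen, while early catagen overlapped the former and the lowest mid catagen mouse. Telogen exceeded late anagen by 1.71 ± 0.19, or 3.27-fold (limma adjusted p = 7.76e-04). Dkk3, a divergent member of the DKK family, was higher by 0.62 ± 0.17 (adjusted p = 0.0253), a call lost without 5 of the 6 arrays, each in turn (adjusted p up to 0.0823).

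**Figure D3:**
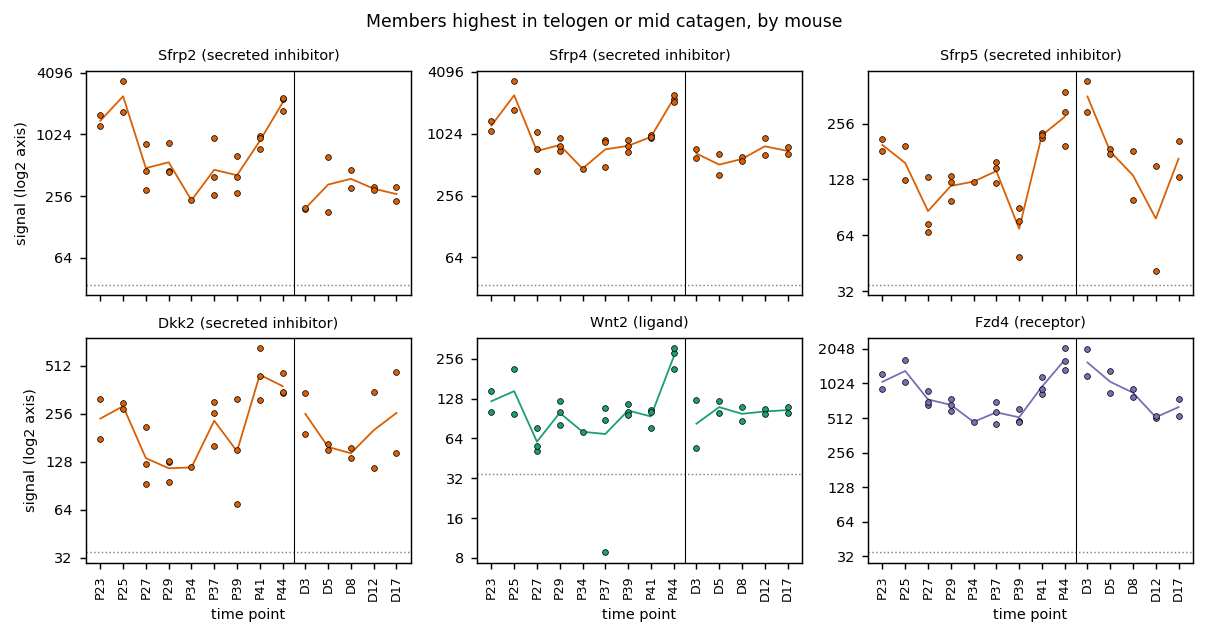
Signals of 6 genes that were highest in telogen or mid catagen, drawn as in the plot of anagen genes, with 1 point per mouse, lines through mean log2 signals and the floor dotted. The 3 telogen mice lie at 1744 to 2307 for Sfrp2 and at 2082 to 2422 for Sfrp4, while both D3 mice lie under 200 for Sfrp2 and under 730 for Sfrp4.

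Lef1 had the largest range of all 38 genes, 4.06 on the log2 scale (F test, limma adjusted p = 1.85e-09). Lef1 is the DNA-binding partner of beta-catenin that marks hair precursor cells. Signals were 112, 69.8 and 92.8 in telogen, 559.7, 900.2, 603 and 997 in early anagen, 1725, 1457 and 1172 in mid anagen, 1796, 1609 and 1162 in late anagen and 1529 at P34. Early catagen mice spanned 846 to 1842 with a median of 1144, and mid catagen mice were at 127, 129 and 199.9. Telogen and mid catagen mice, all at or below 199.9, did not overlap with any of the other natural mice, the lowest of which was at 559.7. Lef1 was 8.27-fold higher in early anagen than in telogen (3.05 ± 0.26, adjusted p = 6.09e-04) and fell 8.01-fold from early to mid catagen (-3.00 ± 0.26, adjusted p = 1.34e-04). Its second probe set followed the first (r = 0.966 across the 33 arrays). Ctnnb1 moved far less and was lower in telogen than in late anagen (-0.71 ± 0.14, adjusted p = 0.00615). Axin2, a widely used readout of beta-catenin activity, ranged over 0.51 between phases, was not called between telogen and late anagen (-0.022 ± 0.15, adjusted p = 0.915), and its second probe set correlated with the first at 0.153.

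The promoters of Lef1, Wnt11 and Wif1 are shown as examples of genes that lost most of their signal together between early catagen and telogen. They are the 250 bases before an annotated start, 5′ to 3′ on the plus strand, from RefSeq on GRCm38.p6, searched on both strands, with the 50 bases after the start, for CTTTGNN with A or T in both last places, the core letters bound by TCF and LEF factors, which are in capitals where found. The Lef1 stretch precedes the most downstream of its 4 listed starts and is chr3:131156044-131156293, the Wnt11 stretch is chr7:98834862-98835111, and the Wif1 stretch is chr10:121033754-121034003.
Lef1: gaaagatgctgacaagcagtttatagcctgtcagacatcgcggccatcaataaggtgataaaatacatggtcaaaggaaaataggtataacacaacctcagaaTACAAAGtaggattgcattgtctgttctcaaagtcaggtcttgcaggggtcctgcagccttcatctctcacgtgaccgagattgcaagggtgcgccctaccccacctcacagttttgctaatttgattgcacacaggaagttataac
Wnt11: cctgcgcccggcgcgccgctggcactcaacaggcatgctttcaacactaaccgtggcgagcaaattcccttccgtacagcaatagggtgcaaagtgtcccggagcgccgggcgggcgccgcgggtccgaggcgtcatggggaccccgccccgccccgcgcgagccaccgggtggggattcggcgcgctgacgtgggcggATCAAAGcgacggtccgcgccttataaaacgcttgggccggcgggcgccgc
Wif1: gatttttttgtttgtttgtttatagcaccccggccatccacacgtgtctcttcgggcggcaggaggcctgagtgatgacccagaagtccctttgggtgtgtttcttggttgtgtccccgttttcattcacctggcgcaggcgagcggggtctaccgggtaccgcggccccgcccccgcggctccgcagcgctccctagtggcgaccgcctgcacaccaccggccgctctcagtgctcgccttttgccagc
Matches began 147 bases before the start in Lef1 and 51 bases before it in Wnt11, both on the minus strand. None of these letters was in the windows of the other 3 Lef1 starts, of the other Wnt11 start or of Wif1. Nor was any in a window of Fzd5, which also lost most of its signal between early catagen and telogen. Of 47 genes 31 had a window, and 6 of their 38 windows (15.8%) held a match, those of Dkk1, Fzd7, Lef1, Wnt11, Wnt3 and Wnt5b, against 16.9% of all 32851 windows in the table, so that the share lay near the background. A match describes the letters and is not a binding site.

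Counted by step, 16 of the 38 genes were called between telogen and early anagen (4 against 3 arrays), 14 of them higher, against 30.1% of all genes called and 15.4% called higher. The 14 were 4 ligands (Wnt5a, Wnt5b, Wnt6, Wnt10b), 5 receptors (Fzd1, Fzd2, Fzd3, Fzd5, Fzd7), the R-spondins Rspo1 and Rspo3, the inhibitors Sfrp1 and Wif1, and Lef1. With second probe sets the calls of all 5 receptors were lost. The 2 lower genes were Wnt2 and Wnt3a. The median log2 difference was 0.34 over the 38 genes and -0.02 over all genes tested. Without any 1 of the 7 arrays 8 of the 16 calls held (Fzd3, Lef1, Rspo1, Rspo3, Sfrp1, Wif1, Wnt5a, Wnt10b). The count was 9 without P23 replicate 2 or P44 replicate 1 and 10 without P44 replicate 2 or 3, and 3 when P25 stood alone for early anagen. Without P25 replicate 1 the count was 20, and all 16 genes were among them.

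Between early and mid anagen (4 against 3 arrays) 8 genes were called, 4 higher and 4 lower, where 18.8% of all genes were, 6.22% higher and 12.6% lower. Lef1, Wnt11, Wnt3a and Fzd6 rose, and Rspo1, Sfrp2, Sfrp5 and Wnt2 fell. Fewer were called without P23 replicate 1 (4), P27 replicate 1 (2) or P27 replicate 2 (1), and 6 without P25 replicate 1. Centring each array on its median, which moved every difference of this step by -0.17 on the log2 scale, gave 3 higher and 11 lower genes in place of 4 and 4. Neither late against mid anagen nor early catagen against late anagen gave a limma call for any gene tested (0% of all genes), with 7 and 3 members at an unadjusted p under 0.05. For the first of these the t-test of the study's methods gave 2 members at a p under 0.01 and 0 after Benjamini-Hochberg adjustment.

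From early to mid catagen (6 against 3 arrays) 15 genes were called, 10 lower and 5 higher, where 39.1% of all genes were called, 18.5% lower and 20.6% higher. The ligands Wnt3a, Wnt4, Wnt5a, Wnt10a and Wnt11, the receptors Fzd5 and Fzd10, Rspo2, Wif1 and Lef1 fell, and the inhibitors Sfrp5 and Dkk3, the receptors Fzd4 and Fzd9 and the ligand Wnt9a rose. The count was 8 without P41 replicate 2 and 7 without P41 replicate 3, and 7 calls held without each array in turn. Without P39 replicate 2 it was 12. From mid catagen to telogen (3 against 3) 6 genes were called, 3 higher and 3 lower, where 7.05% of all genes were, 2.68% higher and 4.37% lower. Sfrp2, Sfrp4 and Wnt2 rose, and Fzd3, Fzd5 and Fzd6 fell. The count was 3 without P41 replicate 2 or 3 or P44 replicate 2 or 3. Telogen against late anagen gave 22 calls, 14 lower and 8 higher (20.5% and 28.7% of all genes), of which 20 held without each array in turn and Dkk3 and Wnt4 did not. Leukocyte markers (Ptprc, Cd74) summed to 18850 to 22420 in telogen and 2676 to 3537 in late anagen, and muscle markers (Des, Mef2a, Mef2c, Ckm, Acta1) to 92340 to 104200 and 37410 to 53810, and their part was not tested.

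After depilation Lef1, Wif1 and Wnt5a, which were high in natural anagen, were low at D3 and had risen by D5, whereas Fzd10 was at D3 already within its natural early anagen range. Lef1 was at 85.0 and 124 at D3, 1372 and 1144 at D5, 1666 and 1828 at D8, 1939 and 1088 at D12 and 1155 and 1906 at D17. Wif1 read 145 and 190, then 1833 and 1356, 1469 and 1989.8, 840.5 and 534 and 564 and 1120.2. Wnt5a had 385 and 298, then 1117 and 979, 1256 and 1479.7, 1899 and 1364 and 1176 and 1530.3. For these 3 genes both D3 mice lay far below every later mouse. The F test over the 5 time points (10 arrays) called 9 of 38 genes, 23.7%, against 11.8% of all genes. They were Fzd1, Fzd2, Fzd3, Fzd5, Lef1, Rspo2, Wif1, Wnt5a and Wnt11, and 5 were called without D3 replicate 1.

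Between D3 and late anagen of the depilation cycle (D8 and D12, 4 against 2 arrays) 16 genes were called, 13 higher and 3 lower, where 21.6% of all genes were called, 10.9% higher and 10.7% lower. Lef1 rose by 3.96 ± 0.30, or 15.5-fold (limma adjusted p = 4.80e-04), Wif1 by 2.69 ± 0.33, Fzd5 by 2.64 ± 0.21, Wnt11 by 2.35 ± 0.15 and Wnt5a by 2.13 ± 0.20. Fzd5 went from 277 and 205 at D3 to 662 and 1041 at D5, 1204 and 1128 at D8, 1923 and 1859 at D12 and 1932 and 1815 at D17. Wnt11 went from 128 and 151 to 417 and 501, 564 and 548, 853 and 967 and 841 and 738. Both climbed from D3 to D12 with no overlap between D3 and any later day. Fzd4, Sfrp5 and Wnt10a were lower, with differences of -1.23 ± 0.28, -1.80 ± 0.51 and -0.62 ± 0.14. The count was 9 without D3 replicate 1 and 10 without either D8 array, and the calls for Ctnnb1, Fzd4, Fzd10, Lrp6, Sfrp1, Sfrp5 and Wnt10a were each lost in some of these fits. From late anagen to D17 no gene of any kind was called by limma (0%), with 2 members at an unadjusted p under 0.05.

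Rspo2 was at 49.3 and 29.5 at D3, 176 and 180.2 at D5, 184 and 239 at D8, 98.2 and 91.9 at D12 and 57.7 and 109 at D17, highest at D5 and D8. Rspo3 read 142 and 184, 149.8 and 106, 222 and 291, 300.1 and 142 and 132 and 185 on the same days, with no peak at D3 (F test, limma adjusted p = 0.329). Wnt10b was at 109.7 and 14, 202 and 91.0, 118 and 166, 131 and 108 and 108 and 90.4, and its 2 D3 mice fell on either side of the floor. Fzd10 was at 457 and 595, 698 and 765, 888 and 1085, 958 and 928 and 821 and 920.1, rising by 0.88 ± 0.16 (adjusted p = 0.0114, 0.0886 without D3 replicate 1).

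The inhibitors Sfrp2 and Sfrp4 stayed low in the depilation cycle, with every mouse below every natural telogen and early anagen mouse. Sfrp2 was at 191 and 197 at D3, 179 and 613 at D5, 462 and 308 at D8, 310.4 and 294 at D12 and 228 and 314 at D17. Sfrp4 was at 591 and 727, 406 and 644, 612 and 550.2, 936 and 635 and 753 and 642. Neither passed the depilation F test (limma adjusted p = 0.595 and 0.485). Sfrp5 read 435 and 295, 186 and 176, 99.3 and 182, 40.9 and 152 and 207 and 132, with both D3 mice above all later ones. Dkk2 read 190.4 and 342, 166 and 152, 155 and 135, 117 and 348 and 464 and 144, and Wnt2 54.3 and 126, 122 and 99.7, 86.9 and 111, 107 and 98.0 and 99.0 and 111. Their days overlapped.

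Set against the phases of the natural cycle, skin at D3 carried less of many receptors, R-spondins and inhibitors than natural early anagen and more of several ligands. Of the 38 genes 25 were called (2 against 4 arrays, in the fit of all 33), 18 lower and 7 higher, where 42.7% of all genes were called, 25.8% lower and 17.0% higher. The 18 lower were 6 of 12 receptors (Fzd1, Fzd2, Fzd3, Fzd5, Fzd7, Lrp6), all 3 R-spondins that were tested, 5 of 7 inhibitors (Dkk3, Sfrp1, Sfrp2, Sfrp4, Wif1), Lef1 and Ctnnb1 of the effectors, and the ligands Wnt5a and Wnt11. The 7 higher were 6 of 13 ligands (Wnt3, Wnt3a, Wnt4, Wnt7b, Wnt9a, Wnt10a) and the inhibitor Sfrp5. Median log2 differences were -1.42 for inhibitors, -1.40 for R-spondins, -0.15 for receptors and -0.13 for ligands, and -0.08 over all genes. Leaving out 1 array gave 22 to 24 calls, with Fzd7, Rspo2, Rspo3, Sfrp5, Wnt3, Wnt7b and Wnt9a lost in some. The fit of females alone (2 D3 mice) left 1 early anagen mouse, P25 replicate 1. With 1 mouse in that group the fit could not test whether these calls depend on sex.

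Telogen, from which depilated skin starts, served as a second reference (2 against 3 arrays, which shares the D3 arrays with the comparison above). Here 15 genes were called, 11 lower and 4 higher, where 31.9% of all genes were called, 18.7% lower and 13.2% higher. The 11 were Fzd1, Fzd2, Fzd3, Lrp6, Rspo1, Dkk3, Sfrp1, Sfrp2, Sfrp4, Wnt2 and Wnt11, and the 4 were Fzd6, Fzd10, Wnt4 and Wnt10a, of which Fzd6, Fzd10, Rspo1, Wnt2 and Wnt11 lost the call without 1 of the arrays. Lef1, Wif1, Wnt5a and the R-spondins Rspo2 and Rspo3, all lower at D3 than in natural early anagen, were not called against telogen, with log2 differences of 0.19 ± 0.34, 0.21 ± 0.42, 0.0087 ± 0.20, -0.25 ± 0.41 and -0.013 ± 0.41 (limma adjusted p from 0.68 to 0.987), and their D3 mice overlapped the telogen mice. Sfrp2, at 193.9 ± 4.4 at D3 against 2108 ± 316 in telogen and 1986 ± 981 in early anagen, was 10.8-fold lower than in telogen (limma adjusted p = 4.73e-05) and 9.48-fold lower than in early anagen (adjusted p = 1.90e-05). Sfrp4, Sfrp1 and Dkk3 differed from telogen by -1.77 ± 0.31, -1.42 ± 0.32 and -1.47 ± 0.24 on the log2 scale (limma adjusted p at most 0.00169). The call for Sfrp1 was lost with its second probe set.

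Frizzled genes 1, 2 and 3 lay under both references. Fzd1 was at 1141 and 1463 at D3, 2831 and 3906 at D5, 4385 and 4195 at D8, 5287 and 5836 at D12 and 5495 and 5068 at D17. Fzd2 read 462 and 363, 966 and 887, 1124 and 1072, 833 and 1142 and 960.5 and 1086, and Fzd3 291 and 287, 455 and 496, 589.9 and 606, 592 and 607 and 599.7 and 574. No natural mouse was as low as either D3 mouse for these 3 genes. Fzd1 at D3 was 3.58-fold below natural early anagen (limma adjusted p = 2.79e-08) and 2.54-fold below telogen (adjusted p = 7.22e-06), Fzd2 3.15-fold and 2.08-fold, and Fzd3 2.71-fold and 1.74-fold. Fzd3 stayed lower at D5 than in mid anagen (-0.88 ± 0.14, adjusted p = 1.94e-04), in depilated than in natural late anagen (-0.38 ± 0.12, adjusted p = 0.0197) and at D17 than in early catagen (-0.38 ± 0.13, adjusted p = 0.0419). With the second probe set of Fzd3, whose signals were lower, the D3 calls were lost. Second probe sets also lost the calls of Fzd5, Sfrp5, Wnt5a and Wnt7b at D3 against natural early anagen. For Lrp6, lower at D3 than in both references, the second probe set gave a rise of 1.56 and 1.60 on the log2 scale.

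Wnt10a and Wnt4 rose above both references. Wnt10a was at 1320 and 1272 at D3, 895 and 917 at D5, 884 and 806 at D8, 769.7 and 924 at D12 and 874 and 743 at D17, and no natural mouse exceeded 823.2. It was 2.45-fold higher at D3 than in natural early anagen (limma adjusted p = 8.54e-07) and 2.4-fold higher than in telogen (adjusted p = 6.93e-06). Wnt4 was at 1839 ± 213 at D3, 1112 ± 128 in early anagen and 849.9 ± 106 in telogen, differences of 0.73 ± 0.15 and 1.12 ± 0.16 (adjusted p = 4.89e-04 and 2.53e-05). Wnt3a was 1.39 ± 0.33 above natural early anagen and not called against telogen (0.32 ± 0.35, adjusted p = 0.513).

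Some tissue markers at D3 stood apart in the same mice, and others overlapped a reference. Bulge markers (Krt15, Lgr5, Cd34) summed to 26460 to 26830 at D3, within natural early anagen (24260 to 31290) and below telogen (35210 to 41930). Most of this sum was Krt15, with a mean of 24360 at D3 and 20020 in early anagen. Lgr5 (366.8 at D3, 1135 in early anagen) and Cd34 (1920 and 5625) were lower at D3 by mean signal. Muscle markers, at 88590 to 122200, overlapped telogen (92340 to 104200). Cornified epidermis markers, at 68130 to 90570, overlapped both early anagen (65660 to 68320) and telogen (89930 to 112000). Basal keratinocyte markers (Krt5, Krt14) summed to 58520 to 76770 at D3, against 33520 to 38860 in natural early anagen and 38050 to 47190 in telogen. Mesenchyme markers (Vim, S100a4, Col1a1, Col3a1) summed to 38190 to 51430, against 88260 to 109600 and 89500 to 134700. By mean signal S100a4 was not lower than in early anagen (5772 at D3, 5206 in early anagen), while Vim, Col1a1 and Col3a1 were. The 4 hair matrix, shaft and inner root sheath markers summed to 297 to 414 and the 3 dermal papilla markers to 283 to 452. Both sums lay below every natural mouse, with 1 marker of each list under the floor at D3. Single markers differed from the sums. Msx2 had a mean of 172.8 at D3 and 150.6 in telogen. Alx4 had 83.85 at D3, 30.5 in telogen and 68.3 in early anagen. The part of these shifts in the D3 differences was not tested.

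**Figure D4:**
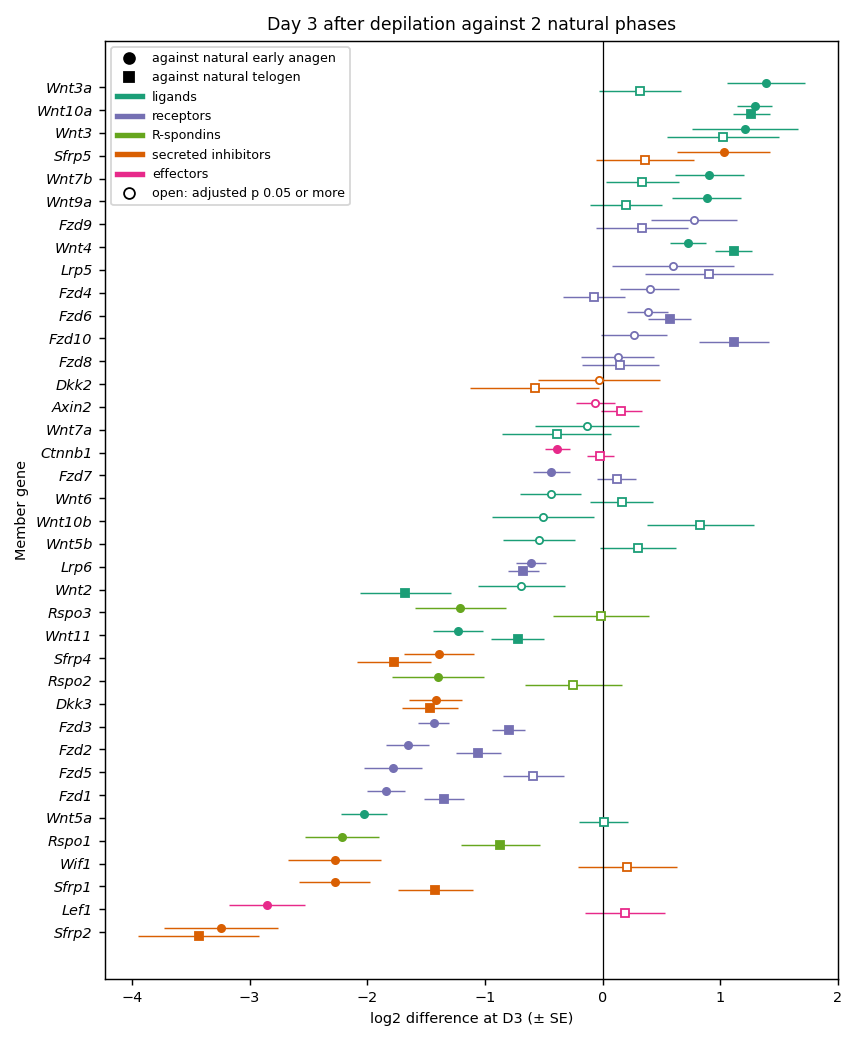
Log2 difference (± SE) of each of the 38 genes at D3 (2 mice) against natural early anagen (circles, 4 mice) and against natural telogen (squares, 3 mice), colored by class, filled where the limma adjusted p is under 0.05. Sfrp2 lies lowest against both, at -3.24 and -3.43, and Wnt10a is near 1.3 for both. Lef1 and Wnt5a are low against early anagen alone, a call that Wnt5a lost with its second probe set.

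At later matched phases fewer genes differed between the cycles. At D5 against natural mid anagen (2 against 3 arrays) 11 genes were called, 7 lower and 4 higher, where 21.3% of all genes were, 10.1% lower and 11.1% higher, and centring on array medians gave 3 lower and 6 higher (a shift of 0.15). Of the 11 calls 10, all but that of Fzd3, were lost without 1 of the arrays. The count was 2 without D5 replicate 1, 7 without D5 replicate 2, 6 without P27 replicate 1, 7 without P27 replicate 2 and 1 in females alone. Late anagen (4 against 3 arrays) gave 4 calls, 2 in each direction, where 19.4% of all genes were called, 8.59% lower and 10.8% higher. Fzd7 was 0.66 ± 0.14 and Fzd10 0.69 ± 0.25 higher after depilation, Fzd3 and Ctnnb1 were lower, and all but Fzd7 were lost without some of the arrays. Centring on array medians moved these differences by 0.16 and gave 7 higher and 0 lower genes in place of 2 and 2. With the second probe set the Fzd7 difference turned to -0.87. The count was 1 without P29 replicate 3 or D8 replicate 1, and 2 without P29 replicate 1, P29 replicate 2, D8 replicate 2 or D12 replicate 2. Of early catagen (2 against 6 arrays) the sole call was Fzd3, which was lower (9.36% of all genes were called, 4.41% lower and 4.95% higher), lost without either D17 array or without P37 replicate 1, P37 replicate 2, P39 replicate 1 or P39 replicate 2, so the count was then 0, and after median centring 3 genes were higher and none lower.

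The change from early to late anagen differed between the cycles for 19 of the 38 genes, tested as an interaction, where 19.7% of all genes were called. For 16 genes the change was more positive after depilation, against 13.5% of all genes, and for Wnt3a, Wnt4 and Wnt10a it was more negative, against 6.18%. Lef1 gained 1.01 ± 0.29 in the natural and 3.96 ± 0.32 in the depilation cycle, a difference of 2.94 ± 0.43 (limma adjusted p = 1.23e-04). Wif1 changed by -0.036 ± 0.35 and 2.69 ± 0.40, Fzd1 by 0.12 ± 0.14 and 1.92 ± 0.16 and Wnt5a by 0.37 ± 0.17 and 2.13 ± 0.19. Sfrp2, Rspo1 and Rspo3 changed by -1.75 ± 0.43, -1.53 ± 0.28 and -1.33 ± 0.34 over natural anagen and by 0.80 ± 0.49, 0.55 ± 0.32 and 0.50 ± 0.39 after depilation. Fzd2 changed by -0.59 ± 0.16 in the natural cycle and by 1.34 ± 0.18 after depilation (1.93 ± 0.24, adjusted p = 2.48e-05). The contrast rests on the D3 arrays as its starting point. Their hair matrix, shaft and inner root sheath markers summed to 297 to 414, against 8220 to 22750 in natural early anagen. The part of this difference in the interaction was not tested. Without D3 replicate 1 the count was 11, with sex in the model 18, and 11 calls held without each array in turn. The fit of females alone rested on 1 natural early anagen mouse, P25 replicate 1, so sex was not tested apart from that mouse. With second probe sets the calls for Fzd3, Fzd5, Fzd7, Lrp6, Wnt4 and Wnt5a were lost. Median centring moved the differences by 0.18 and gave 18 more positive and 2 more negative genes.

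**Figure D5:**
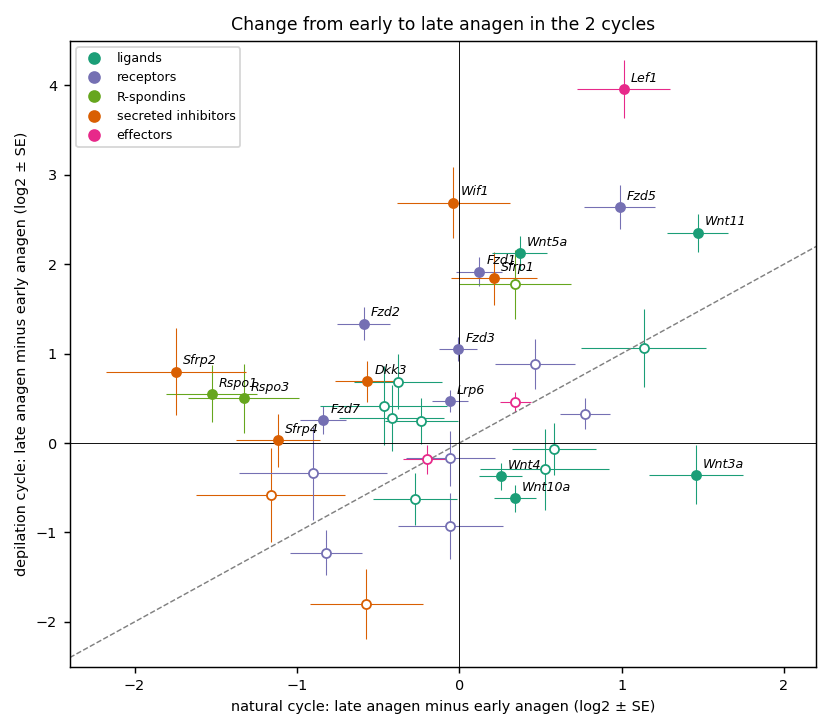
Change in log2 signal from early to late anagen in the natural cycle (horizontal axis) and in the depilation cycle (vertical axis), ± SE from the fit of all 33 arrays, with 1 point per gene. Filled and named points passed the limma interaction test, and the dashed line marks equal change; Lef1 lies at 1.01 and 3.96, and Wnt3a at 1.46 and -0.36.

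Other genes of the pathway were taken from a list of 62 genes outside the rule, of which 57 were tested (Kremen2 had no probe set of its own; Sost, Cer1, Dvl3 and Pygo1 were under the filter). The natural F test called 48 of 57 (77.1% of all genes). From telogen to early anagen 17 rose and 2 fell (15.4% and 14.6% of all genes), and against late anagen 17 were lower and 8 higher in telogen (20.5% and 28.7% of all genes). Feedback inhibitors of the pathway in the cytoplasm, Nkd1 and Nkd2, were lower in telogen than in late anagen by log2 differences of -1.94 ± 0.25 and -1.26 ± 0.15 (limma adjusted p at most 0.00142). Ror2 and Ror1, receptors of Wnt5a, rose by 1.72 ± 0.24 and 1.53 ± 0.14 from telogen to early anagen, and Vangl2, a core planar polarity gene, by 1.09 ± 0.16 (limma adjusted p at most 0.0041). Of the R-spondin receptors Lgr6 was 1.39 ± 0.12 higher in telogen than in late anagen (adjusted p = 3.48e-04), while Lgr4 and Lgr5 were not called there (-0.67 ± 0.23 and -0.24 ± 0.22, adjusted p = 0.0503 and 0.427) and rose from telogen to early anagen by 0.92 ± 0.23 and 0.76 ± 0.22 (adjusted p = 0.0257 and 0.0432). Sostdc1, a secreted inhibitor of WNT and BMP signaling, rose by 1.17 ± 0.14 into early anagen and fell by 1.09 ± 0.17 into mid anagen, and Frzb and Draxin, both WNT antagonists, changed by -1.02 ± 0.22 and -1.16 ± 0.29 at that step (adjusted p at most 0.0313). Csnk1e, a casein kinase, rose by 1.55 ± 0.38 from early to mid anagen (adjusted p = 0.0292). Wls, which carries WNT proteins to the cell surface, and Porcn, which attaches their lipid, were lower in telogen than in late anagen, by -0.99 ± 0.16 and -1.01 ± 0.17 (adjusted p at most 0.00367).

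At D3 the same list had 27 genes lower and 7 higher than in natural early anagen, of 57, where 25.8% of all genes were lower and 17.0% higher. Lower genes were Nkd2 (-2.14 ± 0.26), Ccn4 (-1.98 ± 0.31), a beta-catenin target listed under its older name Wisp1, Draxin (-1.71 ± 0.33), Ror1 (-1.69 ± 0.34) and Lgr5 (-1.61 ± 0.27), a marker of bulge and germ cells, and Csnk1e was 1.29 ± 0.29 higher (limma adjusted p at most 0.00108). Of the other bulge markers, Cd34 was also lower by mean signal (1920 at D3, 5625 in early anagen) and Krt15 was not (24360 and 20020). The interaction called 25 of the 57 (19.7% of all genes), 22 of them more positive after depilation (13.5% of all genes).

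The 9 genes under the filter were the ligands Wnt1, Wnt2b, Wnt8a, Wnt8b, Wnt9b and Wnt16, the R-spondin Rspo4 and the inhibitors Dkk1 and Dkk4. Each exceeded its array's median on fewer than 3 arrays, so their changes were not tested, and this does not show that they are absent from skin. Wnt16 read 70.9 and 130.2 at D3, its highest signals, with 28 arrays under the floor, and Dkk1 lay between 9.4 and 151.5 with 8 arrays under the floor.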

How the data were processed

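Total RNA of 33 dorsal skin samples, each of 1 mouse, was hybridized by the authors to separate 1-color Affymetrix arrays. The deposited values are MAS5 signal intensities on a linear scale, not logged, whose scaling target and software version are not given in the sources used here. Trimmed means of 496.8 to 498.4 on all arrays showed that each array had been scaled to 1 level, so a shift of all genes cannot be seen. No 2 arrays were identical.

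Before log2 was taken, a floor was set at the 25th percentile of the values of all arrays (34.6). Of 45037 probe sets 26988 were above the array median on at least 3 arrays and were tested. Probe sets were named through the platform annotation (34945 with 1 symbol, 932 with several, 9160 with none), and each gene was represented by its probe set of highest mean. limma 3.58.1 (lmFit, eBayes) with Benjamini-Hochberg adjustment over all tested probe sets was run on the arrays compared for natural steps, on 10 arrays for the depilation cycle and on all 33 arrays, with a mean per time point, between cycles. The code was tested on simulated data. Signals by array (for 6 mice, the range and median) were given for the 14 genes of largest range over the natural phases among those past the F test, and for the 4 further genes of smallest p between the cycles, and the other genes by counts and ranges. Genes, lists and tests were chosen with earlier results of these data known. Replicates were separate mice. Alternatives were other floors, filters, scalings, probe sets, fits, sex and replicate terms, the t-test of the study's methods and leaving out each array.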

Additional observations from a re-analysis of the deposited data

Results flagged for a closer look

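In 3 of 54 groups of 4 or 6 mice that were examined, 1 mouse lay further from the rest than Dixon's criterion allows, which chance gives in about 1 of 20 groups. Sfrp2 was at 462.2 in D8 replicate 1 against 294.1 to 310.4 in the other 3 depilated late anagen mice, with a gap of 0.903 of the range. Dkk2 was at 348.5 in D12 replicate 2 against 116.6 to 155.3 in the same group. Wnt2 was at 8.8 in P37 replicate 1 against 88.3 to 116.8 in the other early catagen mice.

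The change from early to late anagen differed between the depilation and the natural cycle for 19 genes by the limma interaction test. The difference (depilation minus natural, log2) was 2.94 for Lef1, 2.73 for Wif1, 2.55 for Sfrp2, 2.08 for Rspo1, 1.93 for Fzd2, 1.83 for Rspo3, 1.79 for Fzd1, 1.76 for Wnt5a, 1.65 for Fzd5, 1.63 for Sfrp1, 1.26 for Dkk3, 1.15 for Sfrp4, 1.10 for Fzd7, 1.06 for Fzd3, 0.88 for Wnt11 and 0.53 for Lrp6. It was -1.81 for Wnt3a, -0.96 for Wnt10a and -0.62 for Wnt4. Age and injury cannot be told apart in this contrast. Its starting points also differed in hair matrix, shaft and inner root sheath markers, which summed to 297 to 414 at D3 and 8220 to 22750 in natural early anagen. Whether they matched in follicle stage, beyond the study's staging, was not tested. With sex in the model 18 genes were called. The fit of females alone rested on 1 natural early anagen mouse, P25 replicate 1. The calls for Fzd3, Fzd5, Fzd7, Lrp6, Wnt4 and Wnt5a were lost with second probe sets.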

How the results depend on the processing

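Among 210 counts of called genes recomputed under other settings, 180 were within 1.5 times of the count reported, and among 138 with 1 array left out, 104 were. Single calls numbered 199, and of 2463 repeats of them under other settings 2200 were kept and 8 reversed, while of 1924 with 1 array left out 1648 were kept and 0 reversed. The cause of a changed count was not tested. Between telogen and early anagen the count was 3 with P25 as the sole early day and 10 with no filter, as with the methods' t-test either adjusted or at p under 0.01. From early to mid anagen it was 3 with P23 alone, 1 with P25 alone, 13 in the joint fit of all arrays, 14 after median centring, 1 with no filter, 14 with sex in the model, and 1 (adjusted) or 3 (p under 0.01) by the methods' t-test. For late against mid anagen it was 1 in the joint fit and 2 by that t-test at p under 0.01. From early to mid catagen it was 8 with no filter, 9 by the adjusted t-test and 8 at p under 0.01, and from mid catagen to telogen 12 in the joint fit and 2 by the adjusted t-test. The depilation F test called 18 in the joint fit. At D5 the count was 1 in females and 7 with no filter, in late anagen 7 with P34 added, 7 after median centring and 7 with the second probe sets, and in early catagen 0 in females, 3 after median centring, 5 with the second probe sets and 3 with sex in the model. The interaction fit in females rested on 1 natural early anagen mouse, P25 replicate 1.

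With 1 array left out the counts ran from 30 to 33 for the natural F test, 9 to 20 for early anagen against telogen, 1 to 8 for mid against early anagen, 7 to 18 for mid against early catagen, 3 to 7 for telogen against mid catagen, 20 to 23 for telogen against late anagen, 5 to 13 for the depilation F test and 9 to 14 for depilation late against early anagen. Between the cycles they ran from 22 to 24 in early anagen, 2 to 9 in mid anagen, 1 to 6 in late anagen and 0 to 1 in early catagen, from 12 to 15 for D3 against telogen and from 11 to 20 for the interaction. Late against mid anagen and early catagen against late anagen stayed at 0 calls in each, as did D17 against depilated late anagen.

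Signs turned for Lrp6 with its second probe set, at 1.597 (D3 against telogen), 1.564 (D3 against natural early anagen) and -0.809 (interaction). They also turned for the second probe sets of Fzd3 at -0.2559 (interaction), Fzd6 at -0.1765 (D3 against telogen), Fzd7 at -0.8691 (late anagen between cycles) and Wnt5a at 0.2953 (D5 against mid anagen), and for Wnt9a in females, at -0.002714 (D3 against natural early anagen). Replicate numbers were read as names of mice. Deviations of same-numbered mice of different time points correlated at -0.262 to 0.387 with a median of 0.00841 (91 pairs). At time points of 2 mice the 2 deviations mirror each other, so these pairs are not independent and cannot exclude pairing. With the replicate number as a block 12 genes were called for early anagen against telogen, 13 for depilation late against early anagen, 14 for mid against early catagen and for D3 against telogen, 5 for telogen against mid catagen and 18 for the interaction, and the block left every other count as reported, although Wnt2 (mid against early anagen) and Wnt4 (telogen against late anagen) lost their calls. Signals near the floor, as for Wnt10b and Rspo2, limit the folds of those genes, and 2 mice per depilation time point limit that cycle.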
